A study of Mus musculus with 6 samples.

Results

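The genes described here are 10 regulators of G protein signalling (RGS): Rgs1, Rgs2, Rgs3, Rgs4, Rgs5, Rgs10, Rgs14, Rgs16, Rgs18 and Rgs19. They were taken by name from a deposited table of 22695 rows of RNA counts, in which each name has 1 row, and 12 further RGS genes in the table serve for comparison. RNA came from inguinal white fat, a depot under the skin, of mice aged 20 months: 3 samples from GSNOR KO mice and 3 from wild-type (WT) mice, all labelled C57BL/6J. GSNOR is S-nitrosoglutathione reductase, the enzyme encoded by Adh5, and the study asks which transcripts differ in aged fat without it. The labels give neither the sex of the mice nor how the knockout was made, and they do not say that each sample was a separate animal, so every error given here measures the spread between these samples, which may be technical.

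Heterotrimeric G proteins relay signals from receptors at the cell surface: a receptor loads the alpha subunit with GTP, and the signal lasts until that GTP is hydrolysed. RGS proteins bind the loaded alpha subunit through a shared RGS domain, speed up the hydrolysis and so shorten the signal. Most act on the Gi and Gq families and not on Gs, the family through which adrenaline raises cyclic AMP and drives lipolysis in adipocytes. Individual RGS genes are known for marked cell type preferences, such as pericytes for Rgs5, platelets for Rgs18 and activated lymphocytes for Rgs1.

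The 10 genes were chosen by name with the log2 fold changes of this same comparison in view, so their differences between GSNOR KO and WT are given as a description, without a test. Levels are given as CPM, counts scaled to a common library size with TMM factors that correct for composition, and they compare a gene between libraries. FPKM, the authors' length-scaled unit, is used to compare levels between genes. Log2 fold changes are GSNOR KO over WT with their standard error (SE) from an edgeR quasi-likelihood fit to all 13694 genes that passed the filter on low counts, and "called" means an adjusted p under 0.05 in that fit. In that edgeR fit 3912 of the 13694 genes lay at an unadjusted p under 0.05, the background for each such edgeR count below. In bulk tissue, fewer cells of a type and less RNA per cell cannot be told apart.

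Some features of the libraries touch these genes. Libraries held 20277594 to 23961574 counts, and Adh5 was at 4.0, 3.81 and 5.08 CPM in GSNOR KO replicates 1 to 3, against 76.9, 66.4 and 58.8 CPM in WT replicates 1 to 3. The 10 adipocyte markers summed to 15578 to 18263 CPM in GSNOR KO and 13782 to 16259 CPM in WT, so the labelled tissue holds its defining cell. The 12 macrophage markers summed to 107 to 141 CPM in GSNOR KO, against 378.6, 205 and 221 CPM in WT replicates 1 to 3, and 9 skeletal muscle markers to 4549 to 7465 CPM in GSNOR KO, against 27955, 11499 and 12506 CPM in WT, so WT replicate 1 stood apart in both. The 9 B and plasma cell markers summed to 11.2 to 17.6 CPM in GSNOR KO, against 34.3, 22.9 and 160.0 CPM in WT replicates 1 to 3, so WT replicate 3 stood apart there.

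**Figure D1:**
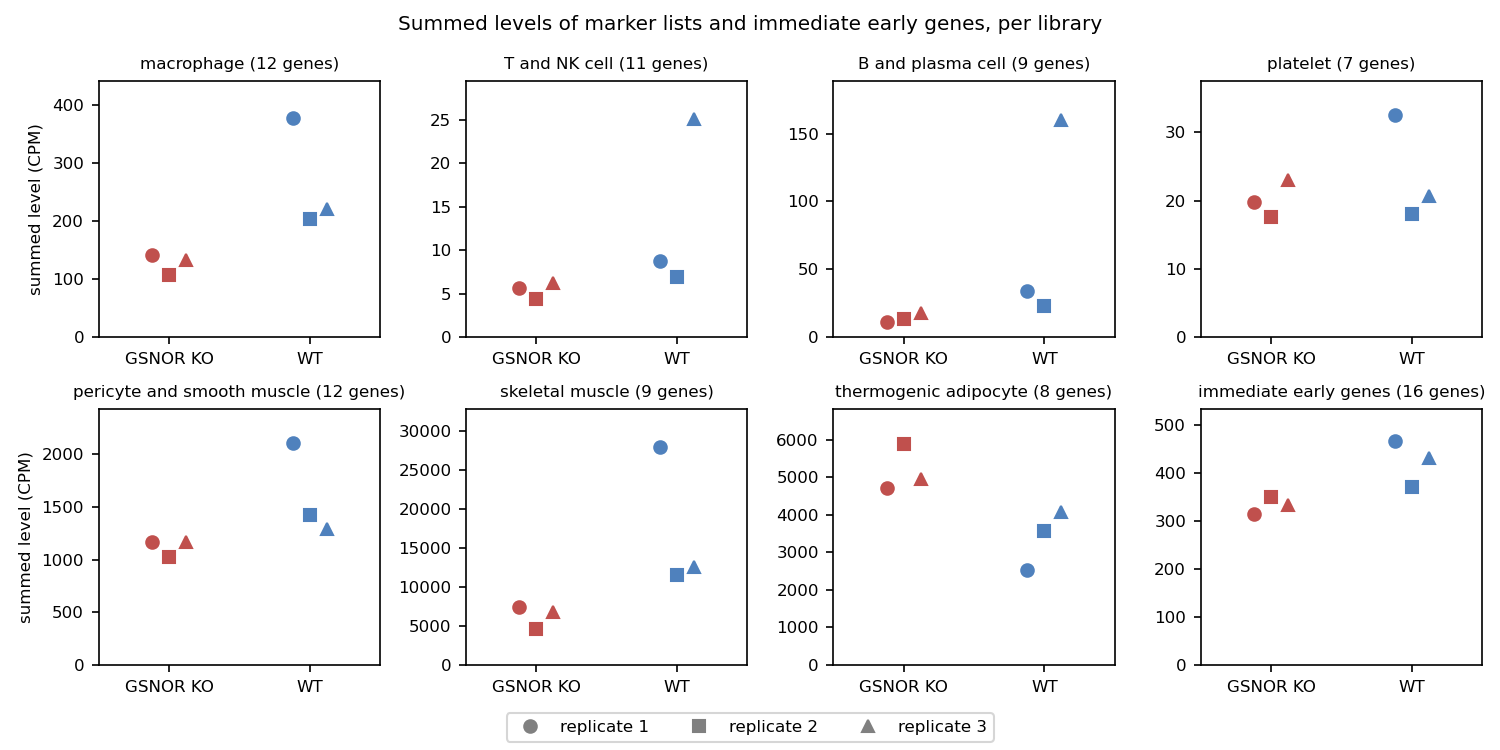
Summed CPM of 7 marker lists and of 16 immediate early genes (vertical axis of each panel), with 1 point per library, GSNOR KO at the left and WT at the right. WT replicate 1 (circle) is the highest library for macrophage, platelet, pericyte and smooth muscle, and skeletal muscle markers. The pericyte and smooth muscle list includes Des, which skeletal muscle also expresses. Without Des its sum is lowest in WT replicate 1 (618 CPM). WT replicate 3 (triangle) is the highest for T and NK and for B and plasma cell markers.

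By position the family is clustered. Of the 10 genes 6 lie on chromosome 1 (GRCm38, GENCODE M21), and 1 each on chromosomes 2, 4, 7 and 13. Rgs2 (143999338 to 144004161), Rgs1 (144242296 to 144249242) and Rgs18 (144752683 to 144775435) lie on the minus strand in a run that also holds Rgs13 and Rgs21, with 0 other protein-coding genes between neighbouring members of the run. Rgs5 (169655501 to 169695813, plus strand) and Rgs4 (169741477 to 169747642, minus strand) are neighbours 45.7 kb apart, again with 0 protein-coding genes between them, and Rgs16 (153740349 to 153745468) has Rgs8 40.0 kb away. The remaining genes are Rgs3 on chromosome 4 (62559847 to 62704001), Rgs10 on chromosome 7 (128373621 to 128418758), Rgs14 on chromosome 13 (55369732 to 55384687) and Rgs19 on chromosome 2 (181688419 to 181693977). Exons of Rgs16 share 236 bases with the antisense gene Gm28513, and no source used here says whether counting used strand, so reads from that stretch cannot be assigned. The other 9 genes share no annotated exon base with another gene.

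Sequence around the start site was matched in RefSeq (GRCm38.p6) for 7 of the 10 genes, all but Rgs1, Rgs14 and Rgs18. The pair Rgs5 and Rgs4 is shown because these neighbours had very different levels, and Rgs2 and Rgs10 because they are the single-start genes with the largest shift in mean level in each direction. Each run covers 250 bases before to 50 after the RefSeq start, 5′ to 3′ on the strand of the gene: Rgs5 at chr1:169655251-169655550 (plus), Rgs4 at chr1:169747593-169747892 (minus), Rgs2 at chr1:144004100-144004399 (minus) and Rgs10 at chr7:128418123-128418422 (minus). Capitals mark matches, on either strand, to the core of a cyclic AMP response element (CRE), spelled TGACG on its own strand and read as CGTCA where it lies on the other. A CCAAT box reads ATTGG on the other strand. The GC box is searched as GGGCGG, with CCGCCC as its other-strand reading. The TATA box is searched as TATAAA, with TTTATA as its other-strand reading.
Rgs5: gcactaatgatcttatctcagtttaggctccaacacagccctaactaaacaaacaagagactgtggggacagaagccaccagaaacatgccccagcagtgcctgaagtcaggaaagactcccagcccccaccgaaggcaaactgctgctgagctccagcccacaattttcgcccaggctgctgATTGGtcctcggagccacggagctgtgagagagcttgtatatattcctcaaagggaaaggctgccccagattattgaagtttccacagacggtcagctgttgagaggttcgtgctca
Rgs4: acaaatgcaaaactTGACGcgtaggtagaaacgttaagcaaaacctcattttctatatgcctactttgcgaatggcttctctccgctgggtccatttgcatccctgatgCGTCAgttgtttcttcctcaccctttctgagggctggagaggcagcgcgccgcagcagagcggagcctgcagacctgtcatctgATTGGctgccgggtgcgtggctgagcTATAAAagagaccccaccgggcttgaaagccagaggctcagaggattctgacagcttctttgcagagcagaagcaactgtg
Rgs2: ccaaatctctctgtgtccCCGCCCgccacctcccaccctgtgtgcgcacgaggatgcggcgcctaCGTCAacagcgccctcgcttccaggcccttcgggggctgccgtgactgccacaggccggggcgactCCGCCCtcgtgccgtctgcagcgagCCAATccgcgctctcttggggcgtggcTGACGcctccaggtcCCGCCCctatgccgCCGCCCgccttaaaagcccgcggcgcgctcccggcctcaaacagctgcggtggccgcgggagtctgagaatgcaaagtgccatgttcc
Rgs10: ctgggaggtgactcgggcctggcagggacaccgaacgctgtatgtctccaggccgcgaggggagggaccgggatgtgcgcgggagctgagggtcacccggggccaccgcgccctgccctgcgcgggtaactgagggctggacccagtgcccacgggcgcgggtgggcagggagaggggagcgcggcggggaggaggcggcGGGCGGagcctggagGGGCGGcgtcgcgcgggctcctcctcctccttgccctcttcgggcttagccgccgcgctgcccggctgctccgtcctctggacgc
The Rgs5 window holds 1 CCAAT box, 67 bases before the start, and is 52.3% G and C. In the Rgs4 window there is a TATA box 31 bases before the start, a CCAAT box at 57 bases and CRE cores at 141 and 236 bases. Rgs2 has CRE cores at 67 and 185 bases, a CCAAT box at 94 bases and 4 GC boxes in a window that is 70.0% G and C. The Rgs10 window, 76.0% G and C, holds GC boxes at 35 and 50 bases. None of the marked matches in these 4 windows overlap. Among all 32817 RefSeq windows of this length, 20.8% hold the CRE core, 37.4% the CCAAT box, 35.6% the GC box and 13.6% the TATA box. These matches describe the letters only.

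Per length, Rgs5 was by far the most abundant RGS transcript. It stood at 132.7, 163.3 and 149.7 FPKM in GSNOR KO replicates 1 to 3, against 96.7, 147.6 and 135.8 FPKM in WT replicates 1 to 3, and its lowest library lay above the highest library of each other RGS gene. By mean FPKM it ranked 506 of 22695 rows. Rgs5 alone took 65.3 to 68.0% of all RGS counts in GSNOR KO and 66.3 to 74.1% in WT, and the 10 genes together took 94.34 to 95.02% in GSNOR KO and 93.51 to 95.17% in WT.

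Rgs3 came next, at 33.1 ± 2.84 FPKM in GSNOR KO and 23.0 ± 4.40 FPKM in WT (SD, n = 3 each), followed by Rgs2 at 15.5 ± 5.48 FPKM in GSNOR KO and 9.09 ± 1.74 FPKM in WT. Rgs3 exceeded Rgs2 in 6 of 6 libraries, although the ranges over all libraries overlapped. Rgs19 followed at 7.23 ± 0.865 FPKM in GSNOR KO and 7.74 ± 1.84 FPKM in WT, and Rgs10 at 3.77 ± 0.890 FPKM in GSNOR KO and 7.01 ± 1.87 FPKM in WT. Rgs4 stood at 4.89 ± 0.774 FPKM in GSNOR KO and 4.37 ± 0.542 FPKM in WT. Rgs19 exceeded Rgs10 in 6 of 6 libraries, although their ranges overlapped, and its lowest library (6.03 FPKM) lay above the highest library of Rgs4 (5.77 FPKM). The order of Rgs10 and Rgs4 was not settled, since their ranges overlapped and Rgs4 exceeded Rgs10 in 2 of 6 libraries.

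The remaining 4 genes were lower still, with mean FPKM over the 6 libraries of 0.713 for Rgs18, 0.615 for Rgs14, 0.529 for Rgs16 and 0.367 for Rgs1. Their ranges overlapped one another. Rgs18 exceeded Rgs1 in 6 of 6 libraries, and each other pair of the 4 changed order between libraries. Rgs12, an RGS gene outside the 10, lay between the groups with 2.38 FPKM in its lowest library, above the highest library of Rgs18 at 1.27 FPKM. Rgs7, also outside the 10, stood at 5.71 to 14.5 FPKM in GSNOR KO and 4.86 to 9.84 FPKM in WT, among the middle genes.

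**Figure D2:**
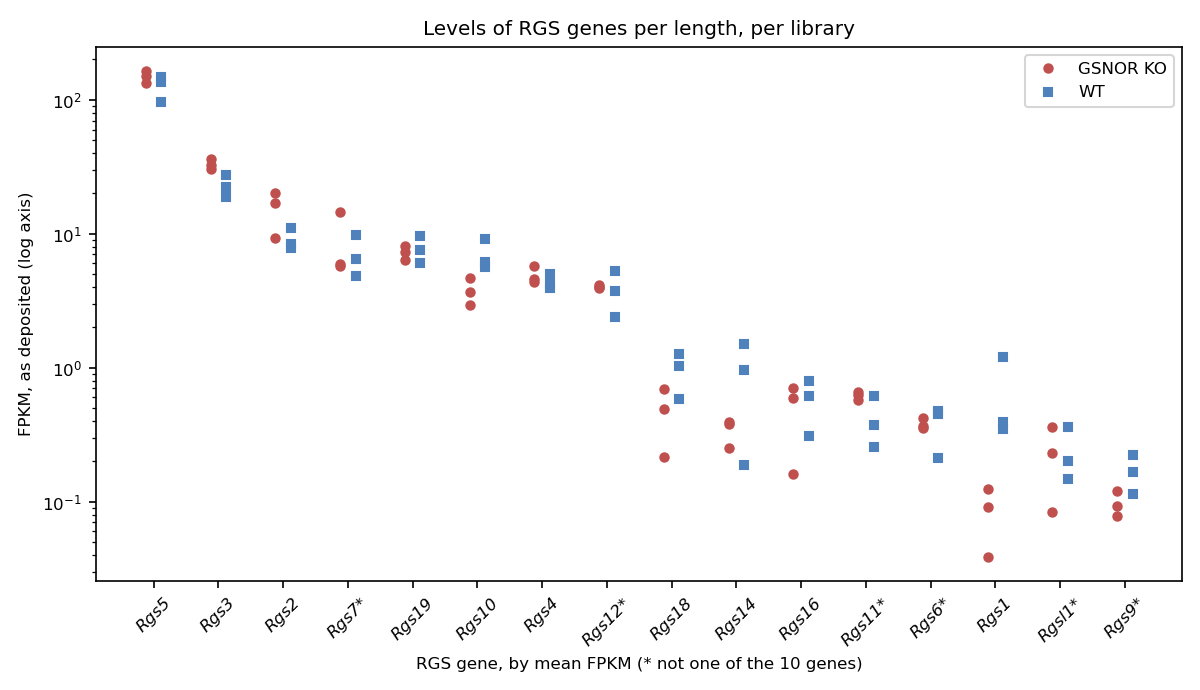
FPKM as deposited (vertical log axis) for the 16 RGS genes above 0 in all libraries, ordered by mean, with 1 point per library and GSNOR KO left of WT; an asterisk marks genes outside the 10. Rgs5 lies between 96.7 and 163 FPKM, above each other gene, and Rgs18, Rgs14, Rgs16 and Rgs1 reach at most 1.51 FPKM.

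Between the groups, Rgs1, Rgs10, Rgs14 and Rgs18 were lower in GSNOR KO by their means, Rgs2 and Rgs3 were higher, and Rgs4, Rgs5, Rgs16 and Rgs19 had log2 fold changes between -0.20 and 0.10. Of the 10 genes edgeR called 1, Rgs1, DESeq2 called Rgs1 and Rgs10 and limma voom called 0, beside 7.04% called by edgeR among all 13694 genes tested (3.9% higher and 3.14% lower). All 10 passed the filter, but Rgs1, with under 10 counts in each GSNOR KO library, passed it through WT alone, so a difference was built into its selection. GSNOR KO and WT libraries did not overlap for 3 of the 10 (Rgs3 higher, Rgs1 and Rgs10 lower), beside 36.7% of all tested genes. Nothing is read from these counts, since the values chose the genes. The median log2 fold change was -0.17 over the 10 genes and -0.04 over all tested genes.

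**Figure D3:**
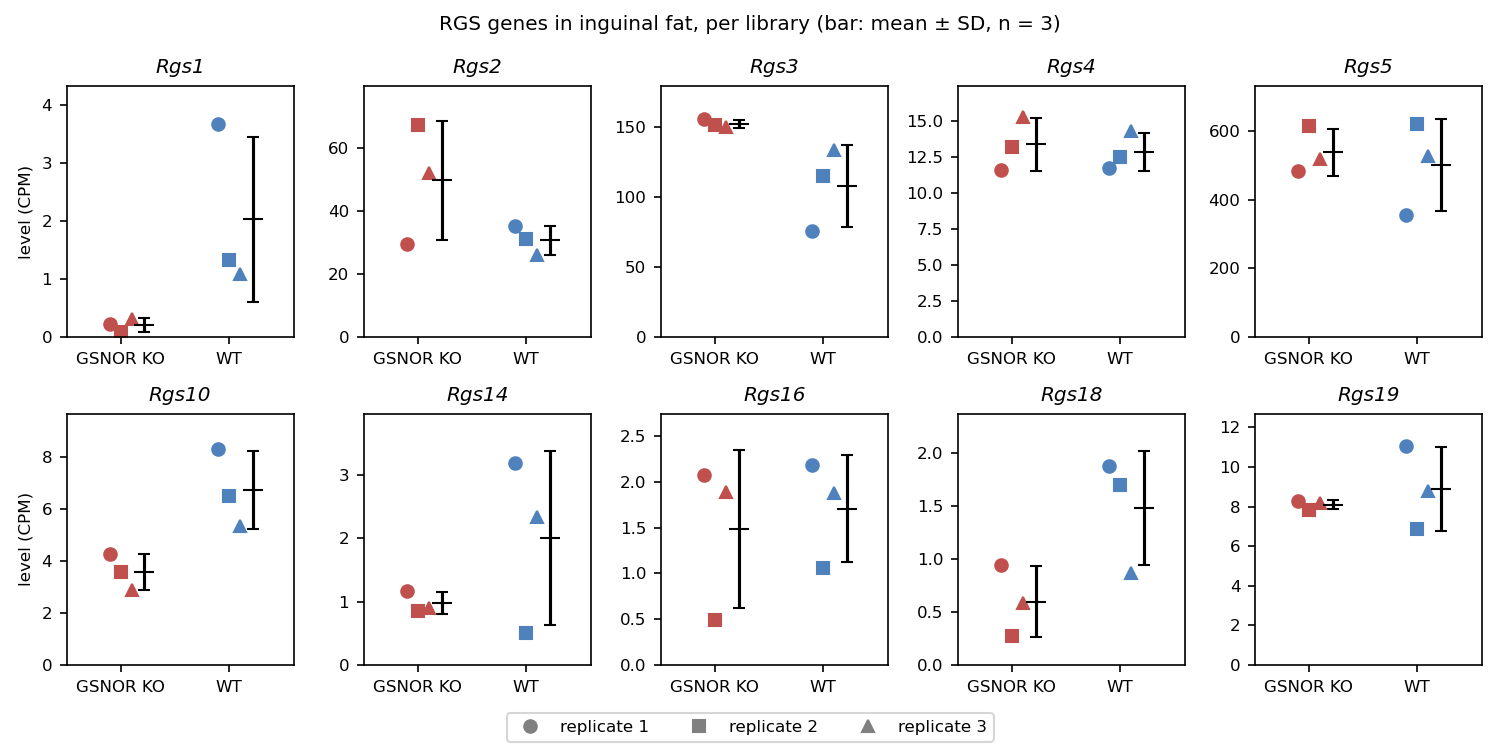
CPM of the 10 RGS genes (vertical axis from 0, a scale of its own per gene), with 1 point per library, GSNOR KO left of WT, and bars for mean ± SD (n = 3). Groups do not overlap for Rgs1, Rgs3 and Rgs10, and overlap for the other 7.

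Rgs1 limits the response of lymphocytes to chemokines through Gi. Its level was 0.225, 0.0897 and 0.315 CPM in GSNOR KO replicates 1 to 3, against 3.68, 1.33 and 1.10 CPM in WT replicates 1 to 3. All GSNOR KO libraries lay below all WT libraries, and WT replicate 1 was well above the other WT libraries. Those levels rest on 5, 2 and 7 counts in GSNOR KO and 84, 29 and 24 counts in WT, and 3 counts correspond to about 0.135 CPM. The log2 fold change was -3.25 (SE 0.672, 95% interval -4.81 to -1.68). Summed counts of 14 in GSNOR KO and 137 in WT, scaled to library size, give a ratio of 9.83, here of WT over GSNOR KO. The exact binomial 95% interval of that ratio, 5.66 to 18.5, covers counting error only and not the spread between libraries. Without WT replicate 1 the log2 fold change was -2.47, and the other 5 omissions of a library gave -2.89 to -3.65. Rgs1 kept its edgeR call without WT replicate 1 or WT replicate 3 and lost it when any other library was omitted.

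Rgs18, best known from platelets and megakaryocytes, was at 0.944, 0.269 and 0.584 CPM in GSNOR KO, against 1.88, 1.70 and 0.869 CPM in WT. The groups overlapped, as GSNOR KO replicate 1 lay above WT replicate 3. These are 6 to 21 counts in GSNOR KO and 19 to 43 in WT, with a log2 fold change of -1.30 (SE 0.529, 95% interval -2.54 to -0.07). Omitting GSNOR KO replicate 1 gave -1.78, and omitting GSNOR KO replicate 2 gave -0.95. Of 7 platelet markers in the table (Gp6 at 0 in some libraries), which summed to 17.5 to 23.0 CPM in GSNOR KO and 18.0 to 32.5 CPM in WT, the chemokine gene Pf4 was lower in all GSNOR KO libraries (4.26 to 7.91 CPM, against 8.68 to 24.7 CPM in WT) without being called (edgeR adjusted p = 0.171). Itga2b, the platelet integrin gene, rose (log2 fold change 0.90, edgeR adjusted p = 0.0487). The part of platelets in the Rgs18 values was not tested.

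Rgs16, an inducible regulator of Gi and Gq, was at 2.07, 0.494 and 1.89 CPM in GSNOR KO, against 2.19, 1.06 and 1.88 CPM in WT. In each group replicate 2 was the lowest library, and the groups overlapped almost fully. Rgs16 had a log2 fold change of -0.20 (SE 0.548) with a 95% interval of -1.48 to 1.08. That interval does not exclude a difference of about 2-fold either way. The sign of the log2 fold change turned, to 0.22 without GSNOR KO replicate 2 and to 0.05 without WT replicate 1.

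Among genes linked to vessel wall cells, Rgs5 marks pericytes and vascular smooth muscle. It was at 482, 615 and 517 CPM in GSNOR KO, against 357, 621 and 528 CPM in WT, with WT replicate 1 the lowest library and the highest value also in WT. Its log2 fold change was 0.10 (SE 0.213, 95% interval -0.40 to 0.60), and its sign turned without WT replicate 1 (-0.06) and without GSNOR KO replicate 2 (-0.00193). All 12 pericyte and smooth muscle markers were detected in all libraries and 0 were called by edgeR, with 1 at an unadjusted p under 0.05. Their sum, 1024 to 1167 CPM in GSNOR KO and 1291 to 2103 CPM in WT, includes Des, which skeletal muscle also expresses (289 to 408 CPM in GSNOR KO, 571 to 1485 CPM in WT). Without Des, a choice made after its values were seen, the sum was 735 to 787 CPM in GSNOR KO. In WT replicates 1 to 3 it was then 618, 852 and 720 CPM, so WT replicate 1 went from the highest library to the lowest.

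Rgs4, the neighbour of Rgs5 and a regulator of Gi and Gq in heart and brain, was at 11.6, 13.2 and 15.3 CPM in GSNOR KO, against 11.8, 12.5 and 14.3 CPM in WT. The groups overlapped and the libraries kept the same narrow range. For Rgs4 the log2 fold change was 0.06 (SE 0.15) with a 95% interval of -0.29 to 0.41, and it became -0.05 without GSNOR KO replicate 3 and -0.000661 with library totals as the only scaling.

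Rgs2 prefers Gq and is known to damp vasoconstrictor signals. Its level was 29.7, 67.4 and 52.1 CPM in GSNOR KO, against 35.2, 31.1 and 26.0 CPM in WT. GSNOR KO replicates 2 and 3 lay above all WT libraries, and GSNOR KO replicate 1 lay among them. The means were 49.7 ± 19.0 CPM in GSNOR KO and 30.8 ± 4.59 CPM in WT (SD, n = 3 each). The coefficient of variation was 38.1% in GSNOR KO and 14.9% in WT. Rgs2 had a log2 fold change of 0.69 (SE 0.283, 95% interval 0.03 to 1.35), which became 0.41 when GSNOR KO replicate 2 was omitted and 0.96 when replicate 1 was.

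Rgs3, which acts on Gi and Gq and has 17 annotated transcripts that counts per gene cannot separate, was at 155, 151 and 150.1 CPM in GSNOR KO, against 76.0, 115 and 133 CPM in WT. All GSNOR KO libraries lay above all WT libraries and close together, while WT spread widely, with coefficients of variation of 1.82% in GSNOR KO and 27.1% in WT. The log2 fold change was 0.49 (SE 0.198). Leaving out WT replicate 1, the lowest library, reduced it to 0.32. In the other omissions it lay between 0.48 and 0.71. The 10 endothelial markers, of which 0 were called by edgeR and 1 lay at an unadjusted p under 0.05, summed to 2547 to 3082 CPM in GSNOR KO and 1392, 2382 and 2563 CPM in WT replicates 1 to 3. Rgs3, Rgs5 and that sum were each at their lowest in WT replicate 1, and the part of vessel cells in the values of either gene was not tested.

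Rgs10 and Rgs14 belong to another branch of the family. Rgs10, a small regulator known from microglia and other macrophages, was at 4.27, 3.59 and 2.88 CPM in GSNOR KO, against 8.31, 6.48 and 5.35 CPM in WT. No GSNOR KO library reached the lowest WT library. The means were 3.58 ± 0.698 CPM in GSNOR KO and 6.71 ± 1.5 CPM in WT (SD, n = 3 each). That is a log2 fold change of -0.91 (SE 0.247, 95% interval -1.48 to -0.33). It stayed between -1.05 and -0.69 when each library was left out.

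Rgs14, which also carries Ras-binding and GoLoco regions and is known from hippocampus and lymphocytes, was at 1.17, 0.853 and 0.899 CPM in GSNOR KO, against 3.19, 0.505 and 2.33 CPM in WT. The WT libraries lay on both sides of the GSNOR KO libraries, with replicate 2 the lowest of all. The log2 fold change of -1.04 (SE 0.610, 95% interval -2.47 to 0.38) became -0.51 without WT replicate 1 and -1.5 without WT replicate 2.

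Markers of some leukocytes, of fibroblasts and of skeletal muscle were lower alongside these genes. All 12 macrophage markers were detected in all libraries, their sum was lower in all GSNOR KO libraries, and 6 of the 12 fell, beside 3.14% of all tested genes called lower. T and NK cell markers (11 genes, with Ncr1 and Klrb1c at 0 in some libraries) summed to 4.35 to 6.25 CPM in GSNOR KO and 6.94 to 25.1 CPM in WT, and B and plasma cell markers were lower in all GSNOR KO libraries too. Of the T and NK and of the B and plasma cell markers, 7 of each were tested and 0 were called by edgeR. In the edgeR fit, 3 T and NK and 5 B and plasma cell markers lay at an unadjusted p under 0.05. Among all 13694 tested genes 3912 did. The sums of other leukocyte lists overlapped between the groups. The 10 neutrophil and mast cell markers summed to 14.9 to 19.0 CPM in GSNOR KO and 18.1 to 38.3 CPM in WT. That sum includes Kit, at 9.69 to 12.5 CPM in GSNOR KO and 7.37 to 11.5 CPM in WT. Of the 7 tested markers 6 had a negative log2 fold change and 1 a positive one. EdgeR called 1 of the 7 lower, and 5 lay at an unadjusted p under 0.05. Of these, Ly6g was at 0 in all libraries and Cpa3 at 0 in some. The 8 dendritic cell markers summed to 49.8 to 55.9 CPM in GSNOR KO and 25.9 to 58.6 CPM in WT, with Flt3 and Xcr1 at 0 in some libraries. That sum includes Zbtb46, at 40.7 to 46.8 CPM in GSNOR KO and 15.3 to 45.3 CPM in WT. Of the 5 tested dendritic cell markers 0 lay at an unadjusted edgeR p under 0.05. Outside the leukocytes, 10 fibroblast and progenitor markers summed to 463 to 529 CPM in GSNOR KO and 695 to 796 CPM in WT, and 5 of the 10 fell. The 8 markers of thermogenic adipocytes summed to 4705 to 5888 CPM in GSNOR KO and 2530 to 4069 CPM in WT, and 3 of the 8 rose. Of the 9 skeletal muscle markers, whose sums are given above, 5 fell. The part of any of these cells in the values of Rgs1, Rgs10, Rgs14 and Rgs18 was not tested. Within WT, Rgs1, Rgs10 and Rgs18 were lowest in replicate 3 and Rgs14 was lowest in replicate 2. Rgs1, Rgs10, Rgs14 and Rgs18 were each highest in WT replicate 1. These orders rest on 3 WT libraries, and their relation to the marker sums was not tested.

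Rgs19, also known as GAIP, a regulator of Gi from a separate branch of the family, was at 8.28, 7.85 and 8.18 CPM in GSNOR KO, against 11.1, 6.84 and 8.78 CPM in WT. All GSNOR KO libraries lay inside the WT range. Rgs19 had a log2 fold change of -0.14 (SE 0.197, 95% interval -0.59 to 0.32) and turned to 0.08 without WT replicate 1.

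**Figure D4:**
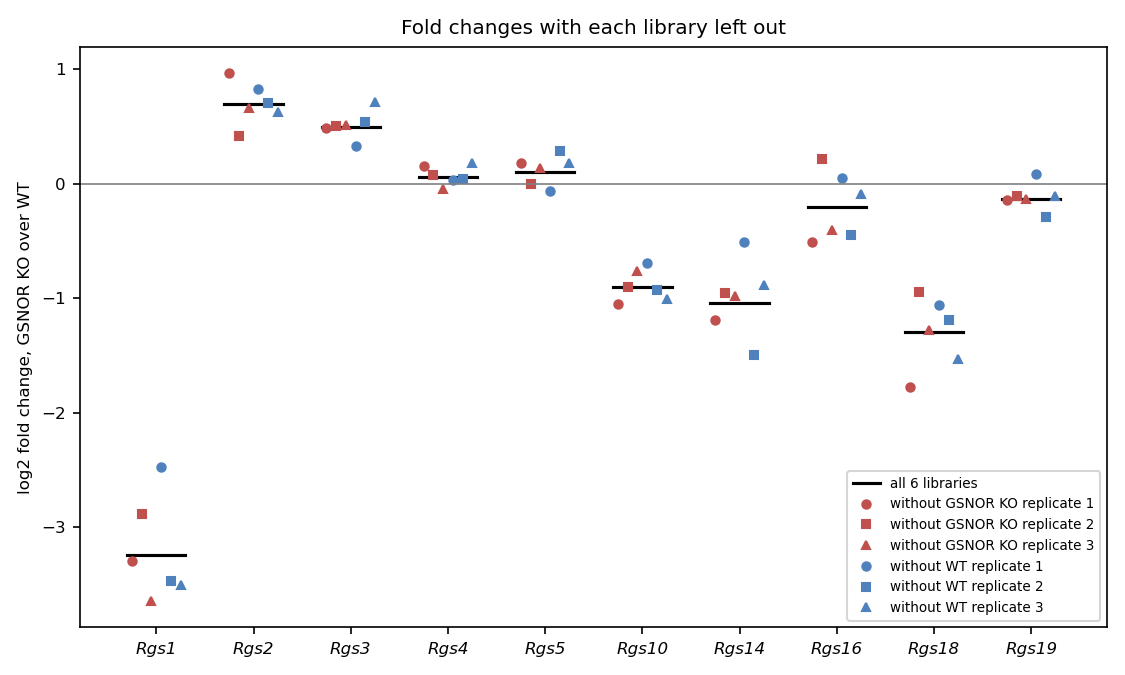
Log2 fold change (GSNOR KO over WT, vertical axis) of the 10 RGS genes with all 6 libraries (line) and with each library left out (points). Rgs1 lies between -3.65 and -2.47 and Rgs10 between -1.05 and -0.69, and Rgs4, Rgs5, Rgs16 and Rgs19 cross 0.

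The genes whose pattern over the 6 libraries was most like that of each RGS gene were found by the root mean square (RMS) difference of centred log2 CPM, among genes with an assigned name, outside the lists and with a mean of at least 5 CPM. Rgs5 was closest to Tril (RMS 0.023) and Hoxd4 (0.049), Rgs3 to Ankzf1 (0.037) and Cabin1 (0.046), Rgs19 to Plekhb2 (0.043) and Lipa (0.043), and Rgs4 to Ddit3 (0.047) and Edrf1 (0.054). Rgs10 was closest to Leprel1 (0.076) and Prss23 (0.084), and Rgs2 to Plk3 (0.114) and Nav2 (0.164). The genes with few counts had no close match: Rgs18 lay 0.226 from Clcn1 and 0.241 from Prrx1, Rgs1 0.314 from Tmem233 and 0.321 from Ppp1r3a, Rgs14 0.372 from Itgb7 and Coro1a alike, and Rgs16 0.377 from Dbp and 0.420 from Uap1l1. Many genes share such patterns over 6 libraries, and the distances are a description.

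The other 12 RGS genes are those left out by a choice made with these values in view. Their results therefore depend on that choice too, and their p values are given as a description. Rgs21 and Rgs22 were listed at 0 counts in all 6 libraries, Rgs8 and Rgs13 were at 0 in 5 of them, and 5 of the 12 passed the filter. Of these 5, edgeR called 0, as did limma voom and DESeq2. At an unadjusted edgeR p under 0.05 lay 1, Rgs11, beside 3912 of all 13694 tested genes. Rgs11, of the branch that pairs with the G protein beta subunit Gnb5, was at 2.38, 2.20 and 2.34 CPM in GSNOR KO, against 1.62, 1.42 and 0.915 CPM in WT. All GSNOR KO libraries lay above all WT libraries, and the log2 fold change was 0.80 (SE 0.310, adjusted p = 0.140 by edgeR's quasi-likelihood test). Its exons share 138 bases with Arhgdig on the other strand. Its relatives Rgs6 and Rgs7 had log2 fold changes of -0.01 (SE 0.459, adjusted p = 0.992 in the edgeR fit) and 0.15 (SE 0.185, adjusted p = 0.633), with groups that overlapped. Rgs12 had 0.11 (SE 0.258, adjusted p = 0.804 in the edgeR fit) and Rgsl1, an RGS-like gene, had -0.51 (SE 0.620, adjusted p = 0.632), again with overlap. Exons of Rgs6 and Rgs12 share 77 and 467 bases with antisense genes.

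Of 15 other genes with an RGS or RGS-like domain, all 15 passed the filter, 1 rose and 0 fell, which is 6.67% beside 7.04% of all tested genes, with a median log2 fold change of 0.03. The gene that rose was Adrbk2, also called Grk3, a receptor kinase that binds freed beta and gamma subunits and marks active receptors for arrestin. It was at 59.3, 92.5 and 69.6 CPM in GSNOR KO, against 20.7, 33.8 and 37.2 CPM in WT (log2 fold change 1.27, SE 0.252, edgeR adjusted p = 0.0353). All GSNOR KO libraries lay above all WT libraries. It kept the call without WT replicate 1 or WT replicate 3 and lost it in the other 4 omissions, with log2 fold changes of 1.08 to 1.47. Adrbk1, also called Grk2, its close relative, differed by 0.11 on the log2 scale (95% interval -0.12 to 0.34, SE 0.098, edgeR adjusted p = 0.507). The difference between both kinases was not tested.

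**Figure D5:**
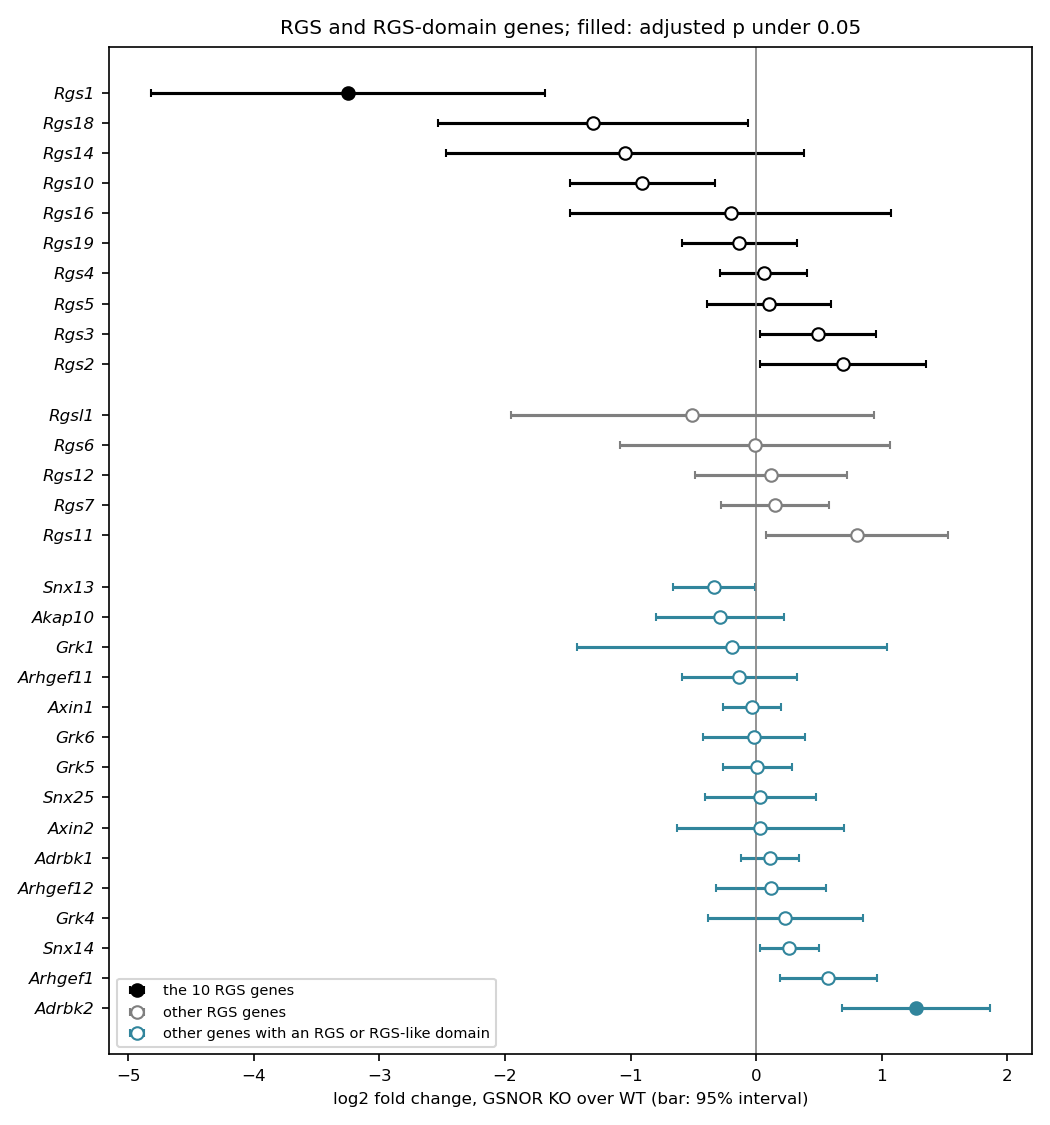
Log2 fold change (GSNOR KO over WT, horizontal axis) with its 95% interval for the 10 RGS genes, 5 other RGS genes and 15 other genes with an RGS or RGS-like domain. Filled points, Rgs1 and Adrbk2, have an adjusted p under 0.05, and the values of the 10 and of the 5 other RGS genes are a description.

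In the wider G protein pathway, 3 of 82 tested genes in 7 lists were called, 2 higher and 1 lower, which is 3.66% beside 7.04% of all tested genes. Rap1gap, a GTPase-activating protein for the small GTPase Rap1 that also binds Gi and Gz alpha subunits, rose to 41.0 ± 3.0 CPM in GSNOR KO, against 21.1 ± 5.22 CPM in WT (SD, n = 3 each, log2 fold change 0.96, edgeR adjusted p = 0.0319). Adcy3, an adenylate cyclase, rose to 21.5 ± 1.58 CPM in GSNOR KO, against 11.0 ± 1.56 CPM in WT (log2 fold change 0.97, edgeR adjusted p = 0.0189). Adcy7, the adenylate cyclase known from leukocytes, fell to 4.67 ± 0.589 CPM in GSNOR KO, against 11.6 ± 2.75 CPM in WT (log2 fold change -1.31, edgeR adjusted p = 0.0243). The share differed between lists. Of 12 tested effector genes edgeR called 2 (16.7%), with 8 at an unadjusted p under 0.05, beside 3912 of all 13694 tested genes. All GSNOR KO libraries lay above all WT libraries for 4 effector genes and below for 4, beside 17.3% and 19.5% of all tested genes. In the list with Rap1gap edgeR called 1 of 11 tested genes, with 2 at an unadjusted p under 0.05. In the effector list DESeq2 also called Adcy2, Adcy5 and Adcy6. Each of the 3 called by edgeR kept its call without WT replicate 1 or WT replicate 3 and lost it in the other 4 omissions.

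The substrates of RGS proteins are the alpha subunits. Among 14 tested alpha subunit genes edgeR called 0, and the median log2 fold change was -0.04. At an unadjusted edgeR p under 0.05 lay 2 of the 14, beside 3912 of all 13694 tested genes. Gnai1, an inhibitory alpha subunit, had the smallest p: it was at 17.0, 12.9 and 15.9 CPM in GSNOR KO, against 24.5, 35.8 and 20.7 CPM in WT (log2 fold change -0.82, SE 0.219, edgeR adjusted p = 0.0631), and DESeq2 called it alone of the list. Gnai2, at 280.2 ± 16.0 CPM in GSNOR KO and 276.9 ± 10.4 CPM in WT, had a log2 fold change of 0.02 (95% interval -0.24 to 0.27). Among 10 tested beta and gamma subunit genes edgeR called 0, with 2 at an unadjusted p under 0.05 and a median of 0.12. Gng2, a gamma subunit gene, came nearest (log2 fold change -1.08, SE 0.286, edgeR adjusted p = 0.0625), and DESeq2 called it alone of the list.

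Receptors that signal through Gi and Gq were also examined. Their counts at an unadjusted edgeR p under 0.05 stand beside 3912 of all 13694 tested genes. Of 10 tested antilipolytic Gi-coupled receptors edgeR called 0, with 2 at an unadjusted p under 0.05 and a median log2 fold change of -0.25. The succinate receptor gene Sucnr1 came nearest (-2.04, SE 0.525, edgeR adjusted p = 0.0595). Of 11 tested Gq-coupled vascular receptors edgeR called 0, with 2 at an unadjusted p under 0.05 and a median of 0.18, and the nucleotide receptor gene P2ry6 lay nearest at -1.57 (SE 0.487, edgeR adjusted p = 0.0892). Of 14 tested Gi-coupled receptors of leukocytes edgeR called 0, with 7 at an unadjusted p under 0.05 and a median of -1.25, beside macrophage and lymphocyte marker sums that were lower in all GSNOR KO libraries. The complement receptor gene C3ar1 had the smallest p in that list (-2.75, SE 0.791, edgeR adjusted p = 0.0757) and stood at 1.66 to 2.74 CPM in GSNOR KO, against 35.1, 6.25 and 4.62 CPM in WT replicates 1 to 3. DESeq2 called 1 gene in each of these 3 receptor lists, Sucnr1, P2ry6 and C3ar1, and limma voom called 0.

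Several RGS genes, Rgs1, Rgs2 and Rgs16 among them, are known to be induced quickly by stimulation, so immediate early genes were set beside them. Of 16 tested 1 fell, Fos, a subunit of the AP-1 transcription factor, to 9.36 ± 1.67 CPM in GSNOR KO, against 29.9 ± 4.58 CPM in WT (SD, n = 3 each, log2 fold change -1.68, edgeR adjusted p = 0.0178), and the median of the list was -0.34. That is 6.25% of the list called, beside 7.04% of all tested genes. At an unadjusted edgeR p under 0.05 lay 6 of the 16, beside 3912 of all 13694 tested genes. All GSNOR KO libraries lay below all WT libraries for 6 of the 16 and above for 0, beside 19.5% and 17.3% of all tested genes. Fos kept its call when any WT library was omitted and lost it when any GSNOR KO library was. The summed level of the list was 314 to 351 CPM in GSNOR KO and 371 to 467 CPM in WT. Rgs1 was lower with that list, whereas Rgs2 had a higher mean in GSNOR KO and Rgs16 overlapped.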

How the data were processed

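Polyadenylated RNA of 6 fat samples was sequenced, per the labels' protocols. The authors deposited whole-number counts per gene, not normalized, and FPKM values, scaled by transcript length and library, per the file headers. The build was GRCm38 (mm10), per the submitters' processing notes. No source used here names the aligner, the counting tool or its strand setting.

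Counts were tested with edgeR 4.0.16 in R 4.3.3: filterByExpr, TMM factors of 0.930 to 1.08 and the quasi-likelihood test (robust dispersion), with p adjusted by Benjamini-Hochberg over 13694 genes and called under 0.05. The SE is the log2 fold change over the root of the F value, and 95% intervals use the t quantile of the fitted degrees of freedom. The procedure was tested on simulated data. A count of 3 equals 0.131 to 0.138 CPM. Pearson correlations of log2(count + 1) between libraries, across rows that are not independent, were 0.970 to 0.989, and no pair was a duplicate. FPKM served only for levels between genes and for 1 alternative. An exact permutation test of 3 against 3 cannot go below p = 0.10, so it was not used. The prior count for log2 CPM patterns was 2.

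The 10 genes and all lists were chosen with earlier results of these data known. Named genes are the 10, Adh5, other tested RGS genes, up to 4 called genes per pathway list or the one with the smallest p, and the 2 nearest in pattern. Single marker genes, Adrbk1, Gnai2, Adcy2, Adcy5, Adcy6, Arhgef1, C5ar1, Rgs8, Rgs13, Rgs21 and Rgs22 were named after their values were seen. The table's symbols Adrbk1, Adrbk2 and Igj were matched as older names. Alternatives were other scalings, filters, DESeq2 1.42.0, limma voom (limma 3.58.1), no robust dispersion, a replicate block and omission of each library.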

Additional observations from a re-analysis of the deposited data

How the results depend on the processing

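Across all tested genes 964 were called, and the count was 2292 with DESeq2 and 3 to 2844 when each library was left out (3 when GSNOR KO replicate 2 or 3 was omitted, 5 for GSNOR KO replicate 1, 13 for WT replicate 2, 2844 for WT replicate 1). Library totals as the only scaling gave 314 higher and 406 lower, against 534 higher and 430 lower. Of the 10 RGS genes 1 was called, with 2 under DESeq2 (Rgs1 and Rgs10), 0 under limma voom, which did not call Rgs1 (4 at an unadjusted p under 0.05), and 0 to 2 in the omissions, 2 without WT replicate 1 (Rgs1 and Rgs3). Of the other RGS and RGS-domain genes 1 was called, with 2 under DESeq2 (Adrbk2 and Arhgef1) and 0 to 3 in the omissions, 3 without WT replicate 1. Of the G protein pathway genes 3 were called, with 11 under DESeq2 and 0 to 12 in the omissions, 12 for WT replicate 1 and 6 for WT replicate 3. Each omission leaves fewer samples, and the counts moved down in some omissions and up in others. The cause of these shifts was not tested.

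With the replicate number as a block 884 genes were called in all, and 6 in the G protein pathway (Adcy2, Adcy3, Adcy7, C5ar1, Gng2 and Rap1gap). Same-numbered libraries did not deviate together in every pair (correlations of their deviations from the group means 0.157, 0.132 and -0.0557 across genes), so the numbers were not taken to pair the samples. The sign of the log2 fold change turned for 4 genes. Rgs4 ranged over the omissions between -0.0451 (GSNOR KO replicate 3) and 0.178 (WT replicate 3), and was -0.000661 with library totals only. Rgs5 ranged between -0.0631 (WT replicate 1) and 0.285 (WT replicate 2), with -0.00193 when GSNOR KO replicate 2 was omitted. Rgs16 ranged between -0.513 (GSNOR KO replicate 1) and 0.215 (GSNOR KO replicate 2), with 0.046 when WT replicate 1 was omitted. Rgs19 ranged between -0.291 (WT replicate 2) and 0.0822 (WT replicate 1). Rgs1, Rgs2, Rgs3, Rgs10, Rgs14 and Rgs18 kept their sign in each alternative run. Rgs18 did not pass the filter of at least 1 CPM in 3 libraries. Depth limits Rgs1 and Rgs18 most, with fewer than 10 counts in some libraries.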
